A study of Mus musculus with 3 samples.

Results

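The 10 genes described here are members of activator protein 1 (AP-1) and the immediate-early factors that accompany it: Fos, Fosb, Fosl1 and Fosl2 of the FOS family, Jun, Junb and Jund of the JUN family, and Egr1, Atf3 and Ier2. They were taken by name, through the transcript each array probe was designed on, and they are 10 of 15389 genes measured. The list was drawn up with the array results known, and Fosb was included because it was chosen from the genes gained in suspension, so the values of the members in the 3 states are given as a description and carry no test.

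Expression was measured with 1-colour Agilent mouse arrays on RNA of cardiac myofibroblasts, the cells that contract and lay down matrix in the injured heart. All cells came from hearts of male C57BL/6J mice taken 3 days after the left anterior descending artery had been tied off permanently, a model of myocardial infarction. The labels give an age of 8 weeks in one field and 10 weeks at ligation in another. The digested cells were left overnight to attach to plastic and were then separated on a magnetic column with beads against CD45, a surface protein of leukocytes. Cells without CD45 were taken as myofibroblasts. The 3 states compared were cells kept on plastic (adherent), cells transferred to suspension (non-adherent) and cells plated once more after suspension (re-adherent). Per the paper the cells stayed in each state for days, so the values are not those of the first hours after a transfer. It also reports that cell numbers fell in suspension, which it ascribes to death of detached cells, so RNA of that state came from the cells that remained. No further treatment or genetic change separated the states per the labels. Each state had 1 array of RNA pooled from several hearts, so no biological spread could be computed, and the errors below are technical errors assigned by the scanner software. The states were collected one after another, so time in culture cannot be told apart from attachment. The comparison asks how these factors differ when the cells lose their support on plastic and regain it.

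FOS and JUN proteins belong to the basic leucine zipper family. A FOS protein binds DNA only as a dimer with a partner such as JUN, whereas JUN proteins can also pair with each other, and the make-up of the dimer sets which genes are bound and how strongly. Transcripts of the immediate-early genes are typically low at rest, appear within minutes of a stimulus through transcription factors already present in the cell, and decay quickly, while some members such as Jund are expressed steadily. In fibroblasts these genes are known for their response to serum, growth factors, stress and mechanical stretch, and in dissociated tissue for their response to the dissociation itself.

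The 3 arrays shared a slide and a scan. Of 59305 non-control spots, between 53.9% and 59.9% were well above background on an array, and no spot was saturated. All 10 members were well above background on all 3 arrays. Signals are given in intensity units as scanned. Log2 differences are between signals scaled to the 75th percentile of each array, and the median of all genes was -0.07 for non-adherent against adherent cells, 0.08 for re-adherent against non-adherent cells and 0.06 for re-adherent against adherent cells. The technical error of a log2 difference was 0.20 to 0.22 for the probes that represent the members. In pooled RNA, fewer cells of a type and less RNA per cell cannot be told apart. The label was checked against marker genes: Acta2, the smooth-muscle actin that defines myofibroblasts, gave 434804, 4682 and 345124 units in adherent, non-adherent and re-adherent cells, and Ptprc, which encodes CD45, gave 355, 2441 and 532 units. The leukocyte marker was therefore not absent from any array, and it was highest in suspension.

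In suspension 7 of the 10 members were over 2-fold higher than in adherent cells (Fosb, Fos, Atf3, Ier2, Jun, Junb and Egr1), 2 were over 2-fold lower (Fosl1 and Fosl2), and Jund lay within 2-fold. Across all genes 17.2% were over 2-fold higher and 14.7% over 2-fold lower. On return to plastic each of these 9 members moved back over 2-fold: 7 were lower and 2 higher than in suspension, against 16.3% lower and 15.6% higher of all genes. Re-adherent against adherent cells left 8 of 10 members within 2-fold, with 0 higher and 2 lower (Fos and Egr1), where 4.84% of all genes were higher and 4.89% lower. Since the members were chosen with these comparisons known, and each pair of comparisons shares an array, nothing further is read from these counts.

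**Figure D1:**
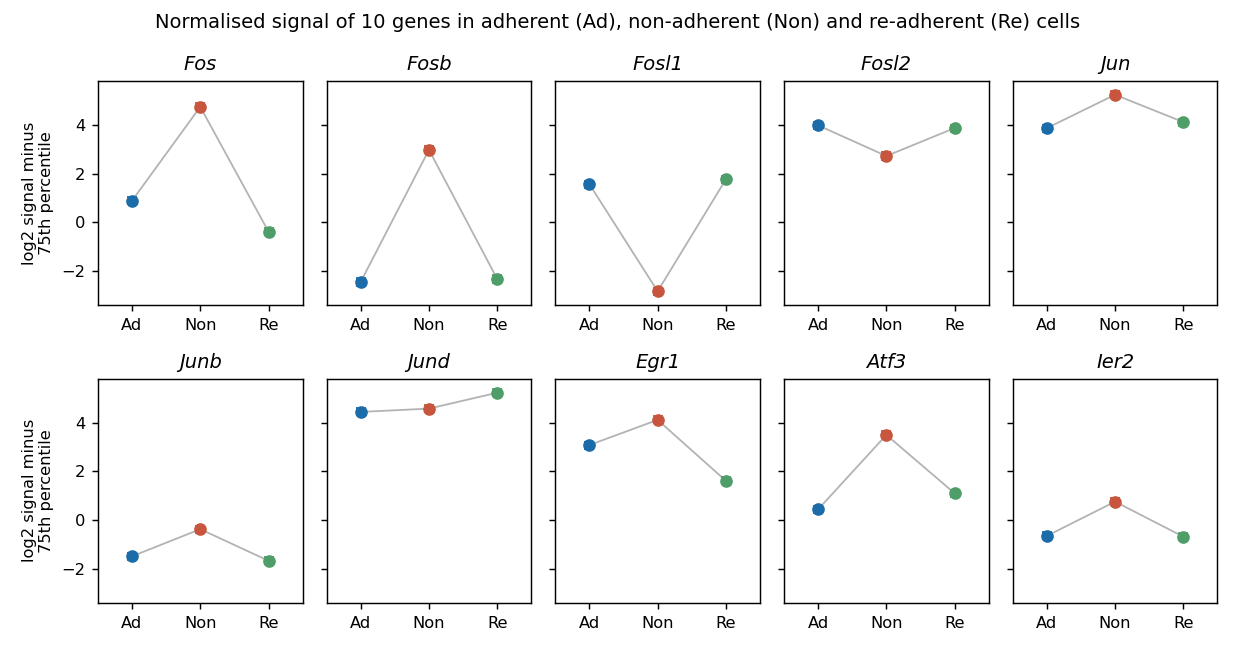
Scaled signal (log2 signal minus the 75th percentile of the array, y axis) of the 10 members in the 3 states (Ad for adherent, Non for non-adherent, Re for re-adherent), 1 panel per gene and 1 array per point, with bars for the technical error, which are mostly hidden by the points. The non-adherent point is the highest in 7 panels and the lowest in those of Fosl1 and Fosl2, and levels are to be compared within a panel, since probes differ in brightness.

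The proximal promoters of the FOS family are shown first, because the family held both the largest rises and the largest fall among the members. RefSeq promoter windows, 250 bases before to 50 after the gene start in the mouse build GRCm38.p6, were used for 7 of the 10 members (Fos, Fosb, Fosl2, Jun, Junb, Jund and Atf3). No window was available for Fosl1, the member with the largest fall, or for Ier2, and that of Egr1 is not reported here. Capitals mark letters of an EGR site (GCGNGGGCG) or an SP1 box (GGGCGG) on either strand. The windows are those of Fosb at chr7:19309996-19310295 on the minus strand, of Fos at chr12:85473640-85473939 on the plus strand and of Fosl2 at chr5:32136222-32136521 on the plus strand:
Fosb: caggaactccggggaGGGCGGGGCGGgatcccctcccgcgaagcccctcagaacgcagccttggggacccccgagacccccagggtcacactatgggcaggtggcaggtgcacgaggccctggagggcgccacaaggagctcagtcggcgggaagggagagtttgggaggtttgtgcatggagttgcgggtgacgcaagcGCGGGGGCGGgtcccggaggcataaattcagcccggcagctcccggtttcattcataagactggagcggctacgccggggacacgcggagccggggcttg
Fos: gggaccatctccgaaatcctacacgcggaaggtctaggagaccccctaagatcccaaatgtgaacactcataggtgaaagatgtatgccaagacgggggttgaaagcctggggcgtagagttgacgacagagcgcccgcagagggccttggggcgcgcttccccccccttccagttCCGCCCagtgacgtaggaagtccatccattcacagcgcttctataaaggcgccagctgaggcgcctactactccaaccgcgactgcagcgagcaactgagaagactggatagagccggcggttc
Fosl2: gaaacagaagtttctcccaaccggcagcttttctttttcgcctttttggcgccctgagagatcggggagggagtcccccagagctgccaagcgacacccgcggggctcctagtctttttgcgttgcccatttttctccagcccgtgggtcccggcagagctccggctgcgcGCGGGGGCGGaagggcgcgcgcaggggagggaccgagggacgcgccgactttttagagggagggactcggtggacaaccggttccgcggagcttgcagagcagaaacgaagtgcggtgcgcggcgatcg

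The Fosb and Fosl2 windows each held an EGR site, at -50 to -42 and at -79 to -71 from the start, although their transcripts differed in opposite directions in suspension. Each of these overlapped an SP1 box. An EGR site was present in 5.55% of 32851 promoter windows and an SP1 box in 35.7%. Of the 7 member windows, 2 held an EGR site and 5 held SP1 boxes, with 11 SP1 matches in all, 5 of them in Atf3, 3 in Fosb and 1 each in Fos, Fosl2 and Jun. No match to an AP-1 site (TGANTCA), a cyclic AMP response element (TGACGTCA) or a CArG box, the serum response element core, was found in any of the 7 windows, and these were present in 7.81%, 1.79% and 1.63% of all windows. The Junb and Jund windows held no match to any of the 5 motifs. A match describes letters in the window and not binding. Only these exact letters were searched, so the lack of a match says nothing of variant sites or of sites outside the window.

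Fosb, whose protein is known for lasting accumulation in a truncated form after repeated stimulation, was measured by 1 probe. Its signal was 119 units in adherent cells, 5479 units in non-adherent cells and 108 units in re-adherent cells. The gene was bright in suspension alone, with adherent and re-adherent cells separated by less than the technical error (log2 difference 0.12 with an error of 0.22). The non-adherent level was 42.9-fold above the adherent level (log2 difference 5.42), which ranked 17 from the top among 15389 genes, and the re-adherent level was 39.5-fold below the non-adherent level (-5.30). With a model-based background correction (normexp) these were 26.9-fold (4.75) and 23.6-fold (-4.56), still past 16-fold. Fosb was the only member past the rule of over 16-fold gained in suspension and over 16-fold lost on re-adhesion, which 0.318% of genes met and on which Fosb had been selected. Its smaller step of 39.5-fold lay inside that rule, and the nearest member outside it was Fos, with 14.5-fold.

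Fos, the founding member of the family and the standard immediate-early transcript, was spotted 10 times on each array, the only member with repeated spots. The spots read 1059 to 1292 units with a median of 1216 in adherent cells, 16281 to 20053 units with a median of 18828 in non-adherent cells (9 spots after an outlier flag) and 372 to 441 units with a median of 428 in re-adherent cells. The 3 ranges did not overlap, and the order was non-adherent, adherent, re-adherent from high to low. The mean signals of 1202, 18645 and 414 units gave a 14.5-fold higher level in suspension (log2 difference 3.86), a 35.0-fold lower level on re-adhesion (-5.13) and a re-adherent level 2.41-fold below the first adherent level (-1.27). The standard errors of these differences from the repeated spots were 0.043, 0.041 and 0.041 on the log2 scale, and cover spotting and local hybridisation on these arrays only. Unlike Fosb, Fos therefore ended below where it started: the Fosb and Fos differences between re-adherent and adherent cells were 1.39 log2 units apart, and between non-adherent and adherent cells 1.57 apart.

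**Figure D2:**
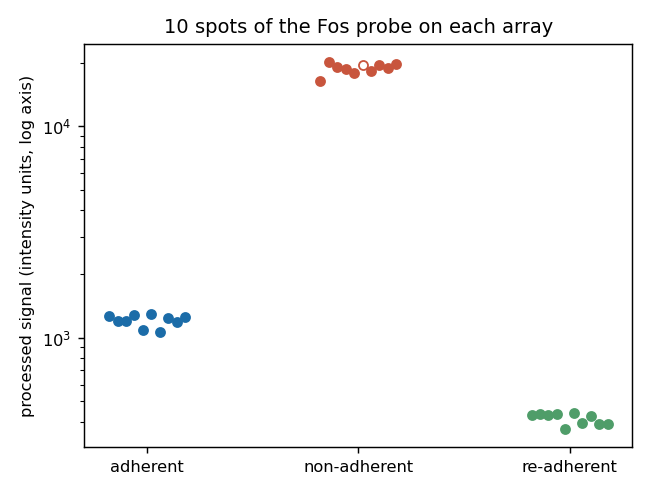
Processed signal (intensity units, log axis) of the 10 spots of the Fos probe on each of the 3 arrays, 1 point per spot, with the open point a spot left out for an outlier flag. The non-adherent spots used span 16281 to 20053 units, the adherent spots 1059 to 1292 and the re-adherent spots 372 to 441, with no overlap.

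Fosl1, which encodes FRA-1, a FOS protein without the strong activation domain of FOS and known for its place in migrating and invasive cells, showed the opposite course. Its signal was 1927 units in adherent cells, 97.8 units in non-adherent cells and 1842 units in re-adherent cells. The gene was thus low in suspension and present at like levels on both plastic arrays (log2 difference 0.20, as large as the technical error of 0.20). It was 21.1-fold lower in suspension (-4.40) and 24.2-fold higher again on re-adhesion (4.60), and so passed the rule of over 16-fold lost and regained, which 0.806% of genes met. With normexp the steps were -3.58 and 3.72, and it no longer passed. The changes of Fosb and Fosl1 into suspension were 9.82 log2 units apart, a 905-fold shift in their ratio, and those of Fos and Fosl1 were 8.26 apart, a 306-fold shift. With normexp the shifts were 322-fold (8.33) and 164-fold (7.36).

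Fosl2, which encodes FRA-2, a FOS protein tied to fibrosis in mice that overexpress it, moved in the direction of Fosl1 but less far. Its brighter probe read 10284 units in adherent cells, 4598 units in non-adherent cells and 7911 units in re-adherent cells. It was 2.39-fold lower in suspension (-1.26) and 2.21-fold higher on re-adhesion (1.15), with adherent and re-adherent cells within the technical error (-0.11). A second, dim probe read 57.3, 28.4 and 54.6 units and gave -1.11 (error 0.30) and 1.31 (error 0.31), so both probes of the gene had the same order of non-adherent below the plastic states. The step of Fosl2 back to plastic fell under 2-fold with no scaling, with quantile or spike-in scaling and with the authors' values. The falls of Fosl1 and Fosl2 in suspension were 3.14 log2 units apart.

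Within the JUN family the differences into and out of suspension were smaller than those of Fos, Fosb and Fosl1. Jun, the main partner of FOS proteins, read 9491, 26300 and 9389 units in adherent, non-adherent and re-adherent cells. Junb, a weaker activator that can oppose Jun, read 232, 537 and 170 units. Jund, often a brake on proliferation, read 14111, 16594 and 20267 units. Jun and Junb shared a peak in suspension, 2.59-fold (1.37) and 2.17-fold (1.12) above the adherent level, and were 2.18-fold and 2.46-fold lower on re-adhesion (-1.12 and -1.30). Their changes into suspension were 0.26 log2 units apart, with an error of about 0.29, and could not be told apart. Jun was 0.25 above and Junb 0.18 below its adherent level after re-adhesion, both differences close to the technical error, and that of Jun turned below 0 with no scaling and with spike-in scaling.

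Jund differed from both of its relatives in being highest in re-adherent cells. Its suspension difference was 0.14, less than the technical error, and turned to -0.08 with spike-in scaling. The re-adherent level was 1.57-fold above the non-adherent level (0.65) and 1.73-fold above the adherent level (0.79), or 0.31 log2 units above the adherent level with spike-in scaling. Its difference from the non-adherent level was 0.29 with no scaling, 0.38 with quantile scaling, 0.39 with spike-in scaling and 0.38 with the authors' values. The changes of Jun and Jund were 1.24 log2 units apart into suspension and 1.77 apart on re-adhesion. The change of Fos into suspension was 2.48 units above that of Jun, and between the plastic states it was 1.52 units below, so the ratio of the Fos to the Jun signal was highest in suspension and lowest after re-adhesion.

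Atf3, a stress-induced member of the ATF family that pairs with JUN proteins and often represses, read 880, 7852 and 1158 units in adherent, non-adherent and re-adherent cells. It was 8.34-fold higher in suspension (3.06), the largest rise after those of Fosb and Fos, and 5.27-fold lower on re-adhesion (-2.40). The re-adherent level stayed 1.58-fold above the adherent level (0.66), a difference of 0.18 with spike-in scaling. Egr1, a zinc-finger factor induced through the serum response element, read 5499, 12033 and 1649 units. It was 2.04-fold higher in suspension (1.03, or 0.82 and so under 2-fold with spike-in scaling), then 5.67-fold lower on re-adhesion (-2.50), which left it 2.77-fold below the adherent level (-1.47). Of the 10 members Egr1 and Fos were those that ended over 2-fold below their start.

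Ier2, a small nuclear immediate-early protein, read 413, 1175 and 336 units. It was 2.66-fold higher in suspension (1.41) and 2.71-fold lower on re-adhesion (-1.44), and the plastic states differed by -0.03. The suspension value of Junb was 0.90 with spike-in scaling, so with this scaling Junb and Egr1 lay under 2-fold and the other 5 higher members stayed above it.

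**Figure D3:**
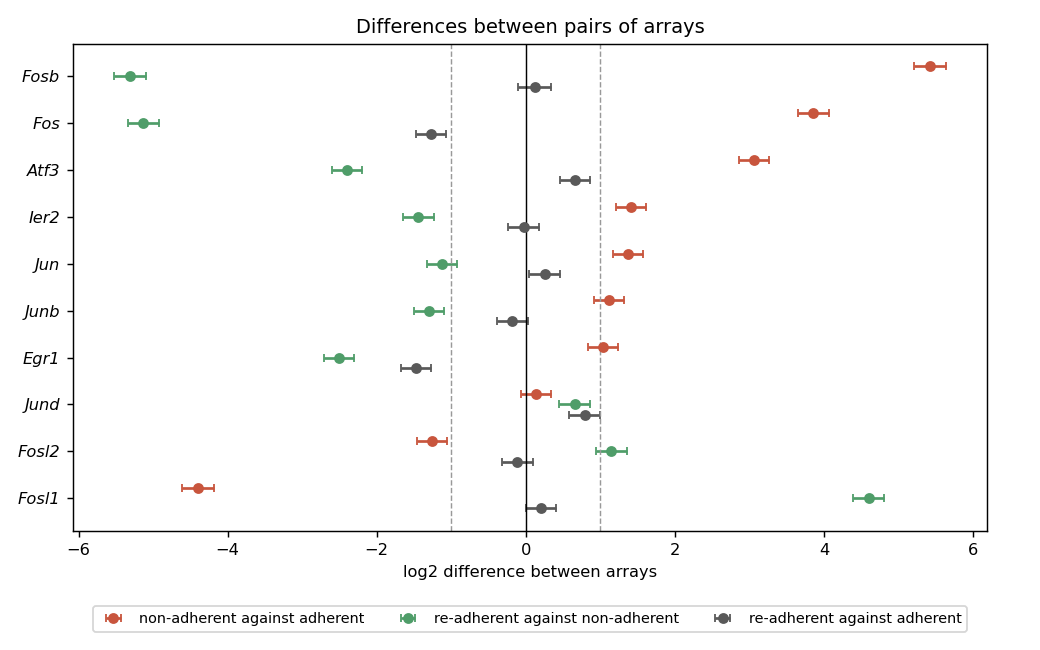
Log2 differences of the 10 members between pairs of arrays (x axis), with the technical error as bars and dashed lines at 2-fold. The differences of non-adherent against adherent cells run from -4.40 for Fosl1 to 5.42 for Fosb, those of re-adherent against non-adherent cells from -5.30 to 4.60, and those of re-adherent against adherent cells from -1.47 to 0.79.

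Read as an order of states, non-adherent cells were highest for 7 members and lowest for 2. Re-adherent cells were lowest for 4 members (Fos, Junb, Egr1 and Ier2) and highest for 2 (Fosl1 and Jund). The shares of all genes with these orders were not computed, so nothing further is read from these counts. Neighbours in this order that were not separated beyond the technical error were adherent and re-adherent cells for Fosb, Fosl1, Fosl2, Junb and Ier2, and adherent and non-adherent cells for Jund. The median difference of the members was 1.24 into suspension, -1.37 on re-adhesion and 0.04 for re-adherent against adherent cells. Spots around each member on the slide, within 3 rows and columns, had median differences between -0.18 and 0.28 into suspension and between -0.45 and 0.35 on re-adhesion. The spots around Jund were at 0.24 and -0.45, and the part of slide position in its small differences was not tested.

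**Figure D4:**
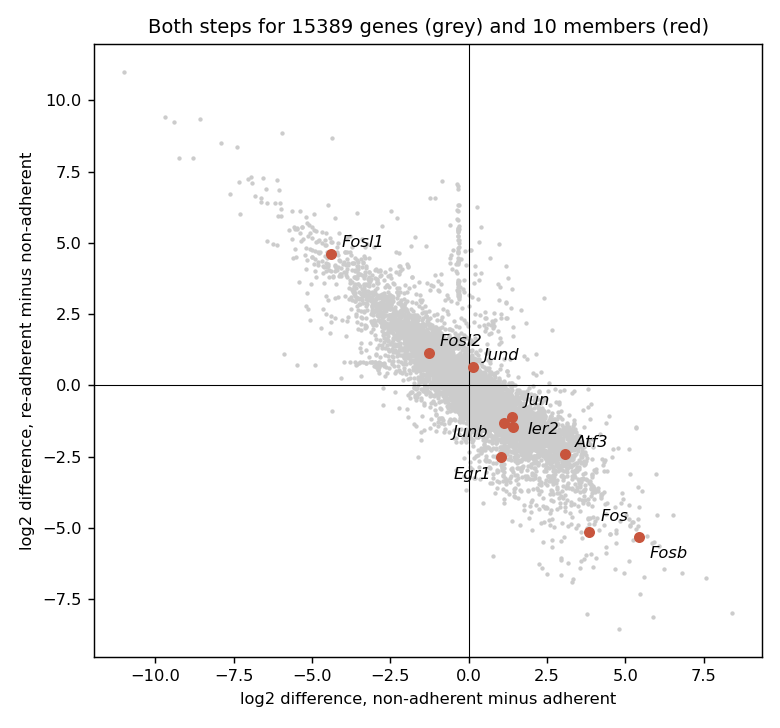
Log2 difference of non-adherent against adherent cells (x axis) and of re-adherent against non-adherent cells (y axis) for 15389 genes (grey) and the 10 members (red, named). Fosb and Fos lie at the lower right and Fosl1 at the upper left, and since both axes contain the non-adherent array a downward slope arises in part from the construction.

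Among 13472 genes well above background on all 3 arrays, those nearest to Fosb in the pair of log2 differences were Fbln7 (distance 0.21, with differences of 5.25 and -5.42), Krtap11-1 (0.74) and Ednrb, the endothelin B receptor (0.76). Few genes lay close to Fosb, which sat at the edge of the distribution. The nearest to Fosl1 were Parva, an actin-binding protein of focal adhesions, at a distance of 0.06 with differences of -4.35 and 4.56, then Fhl2, a LIM-domain cofactor (0.09), and Csf1, the macrophage growth factor (0.10). The nearest to Jund were Higd2a (0.0064), Tmem160 (0.036) and Tes (0.046). Likeness here rests on 3 arrays.

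The other basic leucine zipper genes that pair with AP-1 proteins or are related to them gave 11 measured genes of 12, of which 5 were over 2-fold higher and 2 lower in suspension, with a median of 0.89. On re-adhesion 3 were higher and 5 lower, with a median of -0.71, and 0 differed over 2-fold between re-adherent and adherent cells. The higher genes included the 3 Batf genes, partners of JUN known mainly from immune cells. Batf read 256.5, 1582 and 227 units in adherent, non-adherent and re-adherent cells (2.53 into suspension), Batf2 99.0, 548 and 99.1 units (2.37) and Batf3 171, 855 and 131 units (2.22). Maf, a large MAF factor known from lymphocytes and macrophages, had the same course, with 1040, 9260 and 1216 units (3.06). Maff, a small MAF protein without an activation domain, ran against these genes, as Fosl1 ran against Fosb, with 4070, 431 and 4578 units (-3.34 into suspension and 3.77 on re-adhesion).

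Other immediate-early transcription factors did not share one direction. Of 16 measured of 19, 4 were over 2-fold higher and 5 lower in suspension (median -0.14), 5 were higher and 5 lower on re-adhesion (median 0.24), and 0 were higher and 3 lower in re-adherent than in adherent cells (median -0.19). Egr2, a relative of Egr1, read 1493, 6614 and 419 units. Its difference was 2.05 into suspension, -3.62 on re-adhesion and -1.57 for re-adherent against adherent cells, so like Egr1 and Fos it ended below its start. Npas4, a factor known from neuronal activity, read 470, 94.0 and 147 units and was lower in both later states (-2.42 and -1.41 against adherent cells).

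The immediate-early genes that are not transcription factors divided as well, with 6 of 26 over 2-fold higher and 8 lower in suspension (median -0.10), 8 higher and 6 lower on re-adhesion (median 0.01) and 0 higher and 2 lower in re-adherent than in adherent cells (median -0.17). Higher in suspension were Dusp2, a nuclear phosphatase of MAP kinases, with 149, 2250 and 101 units (3.82), and Zfp36, which speeds the decay of AU-rich transcripts, with 141, 1014 and 99.0 units (2.74). Lower were the matricellular genes Ccn1, with 50278, 2382 and 33746 units (-4.50), and Ccn2, with 195458, 12232 and 194382 units (-4.10). Hbegf, an EGF receptor ligand, read 4598, 392 and 3389 units (-3.65), and Ptgs2, the inducible cyclooxygenase, read 1741, 394 and 848 units (-2.24). Errfi1 and Phlda1, feedback genes of growth factor signalling, were also over 4-fold lower (-2.19 and -2.07).

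Most of the listed MAP kinase and serum response genes upstream of AP-1 differed little at the level of transcript. Of 22 measured of 23, 3 were over 2-fold higher and 0 lower in suspension (median 0.06), 1 was higher and 2 lower on re-adhesion (median 0.06), and 1 was higher and 0 lower in re-adherent than in adherent cells (median 0.16). Rps6ka1, a kinase downstream of ERK, read 2817, 21642 and 6576.5 units and was the only one past 4-fold (2.84). Mapk8 and Map2k7 were dim, with 65.7, 51.2 and 36.8 units and 44.7, 64.7 and 47.6 units. Srf, which encodes serum response factor, was counted with the other immediate-early transcription factors and not here. It was 3.15-fold lower in suspension (-1.66) and 3.21-fold higher on re-adhesion (1.68). The EGR corepressors Nab1 and Nab2 were at -0.08 and -0.24 in suspension, with 0 of 2 past 2-fold in any comparison. Transcript levels say nothing of kinase activity.

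Textbook AP-1 target genes were likewise split, with 8 of 21 over 2-fold higher and 6 lower in suspension (median 0.23), 8 higher and 8 lower on re-adhesion (median 0.20), and 3 higher and 3 lower in re-adherent than in adherent cells (median 0.22). Il6, an inflammatory cytokine, read 9705, 345 and 4357 units (-4.91 into suspension). Timp1, an inhibitor of matrix metalloproteinases, read 245438, 39070 and 129991 units (-2.75), and Il11, a profibrotic cytokine, read 473, 93.8 and 122 units (-2.43). These 3 genes were lower in suspension and 2 others were over 4-fold higher. Spp1, which encodes osteopontin, read 12652, 79062 and 15547 units (2.55), and Hmox1, heme oxygenase 1, read 31331, 158599 and 47038 units (2.24).

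The integrated stress response is a pathway to which Atf3 belongs. Of 10 further genes of it, 0 were over 2-fold higher and 2 lower in suspension (median -0.17), 2 were higher and 1 lower on re-adhesion (median 0.37), and 0 of 10 differed over 2-fold between re-adherent and adherent cells (median 0.27). Asns, asparagine synthetase and a standard ATF4 target, read 33023, 7162 and 33086 units (-2.30 into suspension). Heat shock genes, which accompany immediate-early genes when tissue is dissociated, were at -1.83 to 0.02 in suspension. Of 7 measured of 8, 0 were over 2-fold higher and 3 lower (median -0.72), 3 were higher and 0 lower on re-adhesion (median 0.97), and 0 of 7 differed over 2-fold between the plastic states (median 0.21).

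Markers of other cell types also differed between the arrays. Of 16 measured macrophage and leukocyte markers of 18, 15 were over 2-fold higher and 0 lower in suspension (range -0.84 to 3.58, median 2.69), 1 was higher and 14 lower on re-adhesion (median -1.66), and 8 were higher and 0 lower in re-adherent than in adherent cells (median 1.01). All 16 were well above background on all 3 arrays, and their summed signal was 365, 2014 and 619 times the 75th percentile of the array in adherent, non-adherent and re-adherent cells. The rises of Fosb and Fos into suspension were larger than that of any of the 16 markers, that of Atf3 was smaller than those of 5 markers, and those of Jun, Junb, Egr1, Ier2 and Jund were smaller than those of 15. In re-adherent against adherent cells all 16 markers had a higher difference than Fos and Egr1. The part of leukocyte RNA in the members' values was not tested, nor was its part in those of Maf, the Batf genes and Spp1.

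The 9 myofibroblast markers had 0 higher and 6 over 2-fold lower genes in suspension (median -4.51), 5 higher and 0 lower on re-adhesion (median 4.46), and a median of -0.22 between the plastic states. Suspension was the lowest state for 7 of the 9, as it was for Fosl1, Fosl2 and Maff. The others were Postn (-0.12 into suspension and -0.09 on re-adhesion) and Col3a1 (0.19 and -0.95). Suspension was also lowest for 5 of 10 fibroblast markers, 4 of 5 mesothelial markers and 6 of 7 heat shock genes. The same held for 9 of 16 other immediate-early transcription factors, 13 of 26 other immediate-early genes and 10 of 21 AP-1 targets. Of the MAP kinase and serum response genes it held for 10 of 22, of the AP-1 partners for 3 of 11 and of the macrophage markers for 1 of 16. The share of all genes lowest in suspension was not computed. The summed signal of the 9 myofibroblast markers was 2062, 347 and 1954 times the 75th percentile. Of 10 fibroblast markers 4 were higher and 4 lower in suspension (median -0.49). Of 10 endothelial markers 5 were higher and 1 lower in suspension (median 0.89), 1 was higher and 7 lower on re-adhesion (median -2.25), and 0 were higher and 5 lower in re-adherent than in adherent cells (median -1.17), and 2 of them, Emcn and Cldn5, did not exceed background clearly in re-adherent cells. Highest in suspension and lowest in re-adherent cells was the order of Fos, Egr1, Junb and Ier2. For Junb and Ier2 the plastic states lay within the technical error (-0.18 and -0.03). This order was also that of 7 of 10 endothelial, 3 of 7 pericyte and smooth muscle and 3 of 8 cardiomyocyte markers. Of the fibroblast markers 2 of 10 had it, of the macrophage markers 1 of 16, and of the other immediate-early transcription factors 5 of 16. So did 5 of 26 other immediate-early genes, 3 of 21 AP-1 targets, 2 of 11 AP-1 partners and 1 of 9 myofibroblast markers. Of the MAP kinase and serum response genes 1 of 22 had this order, and of the integrated stress response genes 1 of 10. Its share over all genes was not computed. Among the 7 endothelial markers, Vwf and Flt1 had plastic states within the technical error (-0.08 and -0.13). Of the pericyte and cardiomyocyte markers with this order, Rgs5 and Actc1 were not well above background in re-adherent cells. Abcc9 and Tnni3 were well above background on neither plastic array, and the plastic states of Myh6 lay within the technical error (-0.17, error 0.34). Of 7 pericyte and smooth muscle markers 2 were higher and 3 lower in suspension (median 0.62), and 4 were over 2-fold lower in re-adherent than in adherent cells (median -1.43). The 8 measured cardiomyocyte markers were dim, with a summed signal of 1.4, 2.2 and 3.5 times the 75th percentile, and of 5 mesothelial markers 0 were higher and 1 lower in suspension (median -0.75) and 3 were higher in re-adherent than in adherent cells (median 1.01). The part of these cell types in the members' values was not tested.

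**Figure D5:**
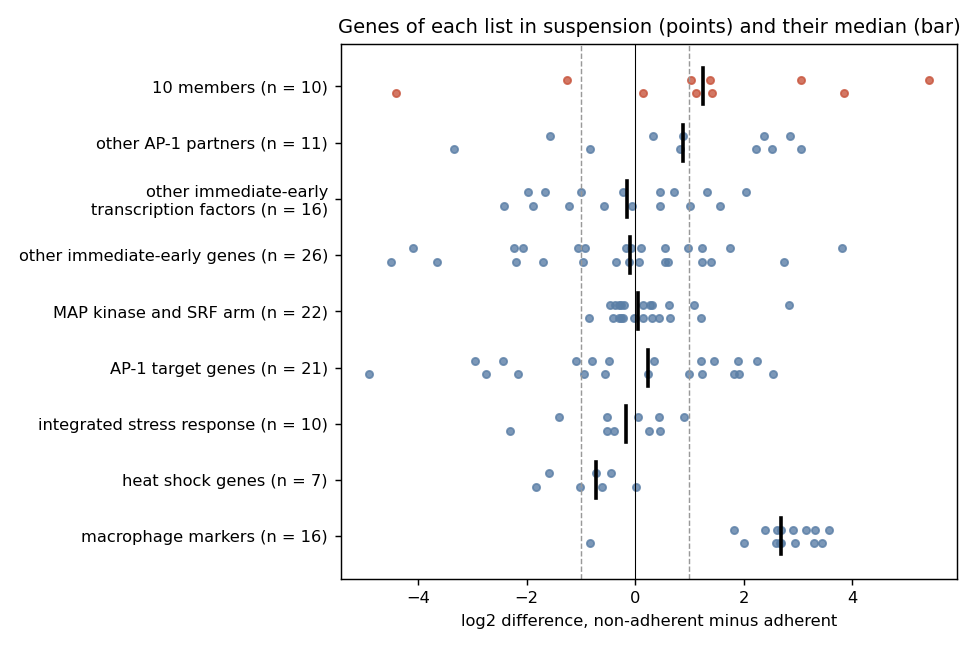
Log2 difference of non-adherent against adherent cells (x axis) for each gene (points) of the members, the lists of related genes and the macrophage markers, with the list median as a black bar and dashed lines at 2-fold. The macrophage markers sit together at a median of 2.69 with 1 gene below 0, whereas the members and the immediate-early and target lists spread over both sides of 0.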

How the data were processed

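RNA of the 3 states was hybridised to 1-colour arrays, 1 array per state. The authors deposited scanner intensity values from Agilent Feature Extraction 10.10.1.1 (background-subtracted, spatially detrended processed signal, per the file headers) and a matrix of intensity values, which equalled the processed signal times 1 constant per array (1.52, 1.52 and 1.62).

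Non-uniform and outlier spots were left out (154 in adherent, 180 in non-adherent and 175 in re-adherent cells). From the log2 processed signal the 75th percentile of the non-control spots of that array was subtracted, and repeated spots of a probe were averaged. Of 37881 transcript names 21461 matched a RefSeq accession (GRCm38.p6), which named 27229 of 55681 probes. Probes that exceeded background clearly in 1 state or more were kept, and the brightest of them stood for its gene. Scripts ran in Python 3.11.15 (numpy 2.4.6, pandas 2.3.3, matplotlib 3.10.9) and were tested on simulated data.

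With 1 array per state no p-value was computed. A gene was called past 2-fold, with technical errors combined from the spot errors of the software. Probes spotted 10 times (267 usable of 399) had a median SD of 0.065, 0.071 and 0.065 log2 units. The number of arrays limits the precision. The members and lists were chosen with earlier results of these data known. Genes named from a list were those past 4-fold in suspension and well above background on both arrays, at most 8 per list, and 1 such gene is not reported here. For Fosb, Fosl1 and Jund the 3 genes nearest in the pair of log2 differences were named, and for marker lists the defining genes. Ptprc and Acta2 served as defining genes. Emcn, Cldn5, Vwf, Flt1, Postn, Col3a1, Nab1, Nab2, Srf, Mapk8 and Map2k7 were named after their values were seen. The same holds for Rgs5, Actc1, Abcc9, Tnni3 and Myh6. The list names Cyr61 and Ctgf were read as Ccn1 and Ccn2.

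Alternatives were normexp correction (limma 3.58.1 in R 4.3.3, offset 50, on median spot and background signals), scaling by the median, by quantiles, by spike-in probes or not at all, the authors' values, background filters, the mean over probes, outlier spots kept, and a 4-fold threshold.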

Additional observations from a re-analysis of the deposited data

How the results depend on the processing

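Each of the 10 members was recomputed in 3 comparisons under 10 alternatives. Of 300 values 232 stayed within the technical error and 68 moved further, 30 of them with spike-in scaling, 20 with no scaling, 10 with the authors' values, 6 with normexp and 2 with quantile normalization. With the background filters, the mean over probes and outlier spots kept, all 30 values under each stayed within the error. Most of these could not change. All members were well above background on every array, only Fosl2 had a second probe and only Fos had a flagged spot. The median of all genes for the 3 comparisons (into suspension, on re-adhesion, re-adherent against adherent) was -0.29, -0.18 and -0.41 with spike-in scaling, 0.03, -0.28 and -0.20 with no scaling and 0.03, -0.20 and -0.11 with the authors' values. No difference past 2-fold changed sign. Small differences did: in re-adherent against adherent cells those of Fosb (3 of 10 alternatives), Fosl1 and Jun (2 each), Fosl2 and Ier2 (1 each), and in suspension that of Jund (1). With a 4-fold threshold the members were 3 higher (in place of 7) and 1 lower (in place of 2) in suspension, 1 higher (in place of 2) and 4 lower (in place of 7) on re-adhesion, and 0 lower (in place of 2) in re-adherent against adherent cells. The shares of all genes past 4-fold were not computed, so nothing further is read from the counts at this threshold. The count of members higher on re-adhesion was also 1 with no scaling, quantile normalization, spike-in scaling and the authors' values, since Fosl2 then lay under 2-fold. Leaving out a replicate was not possible. No paired analysis was possible because each state has 1 array. Depth is not defined for arrays. Every probe of the members was above the lowest signals well above background (14.0 to 18.3 units). Some genes of the related lists and marker lists were not well above background on every array, such as Cldn5 and Emcn. Their differences there rest on signals not clearly detected and are imprecise, with an error of 1.46 for Cldn5 on re-adhesion.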
